A study of Mus musculus with 14 samples.

Results

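Naloxone-treated and DAMGO-treated mouse neural stem cells were compared directly, antagonist against agonist, in 8 of the 14 libraries of the series. The 8 libraries are the 4 labelled Naloxone and the 4 labelled Damgo, 1 of each at 4 stages. The first stage is the undifferentiated culture, and the other stages are day 2, day 4 and day 8 of the differentiation culture. All 8 came from OG2 cells at passage 8, so the stages are matched between the drugs and no library is shared between them. The NC libraries and the untreated cultures kept as reference entered no value of this comparison except 1 named alternative. OG2 is a mouse strain that carries a green fluorescent protein gene under the Pou5f1 (Oct4) promoter. The labels used here give no dose, no exposure time and no number of cultures, so each condition is 1 library. With no replicate within a stage, a p-value below rests on the spread of the naloxone to DAMGO ratio over the 4 stages. edgeR moderates that spread for each gene with the spread of all genes tested, so neither p-values nor intervals rest on 1 gene's ratios alone. That spread holds library noise together with any drug difference that changes with stage.

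Naloxone blocks opioid receptors, with highest affinity for the mu receptor, and DAMGO is a synthetic enkephalin-like peptide that activates the mu receptor selectively. Opioid receptors couple to inhibitory G proteins (Gi/o), which lower cyclic AMP through adenylyl cyclase, release G beta-gamma subunits, and can feed into the ERK kinase cascade. ERK signalling induces its own inhibitors, among them the Dusp phosphatases and the Sprouty proteins, whose transcripts are often read as a trace of pathway activity. Neural stem cells divide while growth factors are present and give rise to astrocytes, neurons and oligodendrocyte-lineage cells once these are withdrawn.

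Depth ranged from 4143030 to 9070533 expected counts per library, and each naloxone library was deeper than the DAMGO library of its stage. The cells carried the marker genes of their labels in both drugs. The progenitor filament gene Nes stood at 1735 CPM (counts scaled to a common library total) in the undifferentiated naloxone library and 1884 CPM in the undifferentiated DAMGO library, and the astrocyte filament gene Gfap stood at 9092 CPM and 8765 CPM at day 8 in the same order. Pou5f1, the gene whose promoter marks the strain, had no counts in any of the 8 libraries. In these bulk cultures, a change in the share of a cell type and a change in RNA per cell cannot be told apart.

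No gene passed the test between the drugs. With stage as a block, edgeR's quasi-likelihood test called 0 of 12312 genes at an adjusted p under 0.05, which is 0% of the genes tested, and the smallest adjusted p was 0.932. At an unadjusted p under 0.05 the same test gave 420 genes, 3.41% of those tested, of which 211 (1.71%) were higher and 209 (1.7%) lower in naloxone cells. That split moved with the scaling: it was 128 higher and 269 lower with the size factors of DESeq2, and 140 higher and 290 lower with equal TPM totals. DESeq2 also called 0 genes, with 10 higher and 89 lower at an unadjusted p under 0.05, and limma-voom called 0 with 237 higher and 193 lower. Naloxone cells had the higher value at 4 of 4 stages for 929 genes (7.55%) and the lower value at 4 of 4 stages for 606 genes (4.92%). If signs were random and independent between stages, the share expected each way would lie between these percentages. Agreement in sign at 4 of 4 stages was thus about as frequent as random signs would give.

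The intervals around these differences were narrow for all but the scarcest transcripts. The 95% interval of the naloxone minus DAMGO difference lay inside 1.5-fold in both directions for 99.7% of the 2504 genes with a mean of at least 100 CPM. The same held for 99.3% of the 5743 genes between 20 and 100 CPM and for 78.9% of the 2887 genes between 5 and 20 CPM. Under 5 CPM it held for 8.74% of 1178 genes, while 75.6% of them had an interval inside 2-fold. The median standard error was 0.07, 0.09, 0.16 and 0.28 on the log2 scale in these 4 classes, taken here by falling level.

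The naloxone to DAMGO ratio of 1 stage told little about that of another. Across 11099 genes of known GC content that averaged 5 CPM or more, the Pearson correlation of the log2 ratios lay between -0.09 and -0.01 for 5 of the 6 pairs of stages, which are genes within libraries and not independent replicates. Day 2 and day 8 were the exception, with a correlation of 0.24. At both of those stages the ratio followed the base composition of the gene: its correlation with GC content was 0.61 at day 8 and 0.29 at day 2, against -0.11 in undifferentiated cells and -0.01 at day 4. The day 2 ratio also fell with length, its correlation with log length being -0.23, against -0.10 at day 8. At day 8 the median log2 ratio was -0.40 among the genes poorest in GC, with a median GC content of 41.4%, and 0.24 among the richest, with 59.6%. With a smooth trend on GC content and length removed within each stage, the correlation between day 2 and day 8 was 0.07. Of the 182 tested genes that the rules for naming chose, predicted genes apart, 124 had a day 8 log2 ratio of at least 0.2 in either direction; without the trend 76 of these were smaller by over 1.5 times and 4 turned sign. At day 2 the same held for 17 and 1 of 105 genes. The CPM values below are given with the trend in place. What lies behind the trend was not tested.

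**Figure D1:**
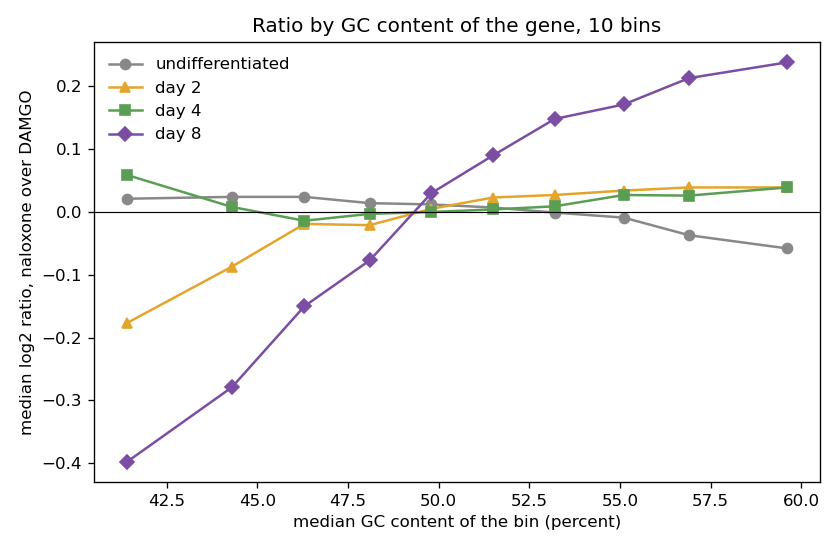
Median log2 ratio of naloxone over DAMGO (vertical axis) in 10 bins of genes ordered by GC content (horizontal axis, percent), 1 line per stage, each library pair being 1 naloxone and 1 DAMGO library. The day 8 line climbs across the bins from -0.40 to 0.24, day 2 climbs less, and the lines of undifferentiated cells and day 4 stay within 0.06 of 0.

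Of 11134 genes that averaged 5 CPM or more, 7.66% had the higher value in naloxone cells at every stage and 4.89% the lower one. Random signs would again give a share between these percentages, so 1 sign at every stage does not by itself mark a drug difference. The genes with the smallest p among those with 1 sign at every stage are named here. Igfbp3 led those that were higher. Igfbp3 encodes a secreted protein that binds insulin-like growth factors and lies at chr11:7206086-7213923 on the minus strand (GRCm38). It stood at 666, 96.8, 33.2 and 71.6 CPM in naloxone cells (undifferentiated, day 2, day 4 and day 8), against 585, 79.9, 27.3 and 53.5 CPM in DAMGO cells. The higher value was in the naloxone library of each stage, although the level itself varied far more between stages than between drugs. The fitted log2 difference was 0.28 ± 0.07 (SE; 95% interval 0.13 to 0.44), which edgeR's quasi-likelihood test did not call (adjusted p = 0.932).

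Id1 was the next gene with a known regulatory role. It encodes an inhibitor of basic helix-loop-helix transcription factors, is a target of bone morphogenetic protein (BMP) signalling, and lies at chr2:152736251-152737410 on the plus strand. Naloxone cells held 7.58, 20.8, 6.18 and 121 CPM of it over the 4 stages, and DAMGO cells held 5.95, 17.1, 5.6 and 85.8 CPM. The naloxone value was higher at each stage, most clearly at day 8, and the fitted log2 difference was 0.39 ± 0.11 (SE). Oplah, which encodes 5-oxoprolinase of the glutathione cycle (chr15:76296601-76328015, minus strand), gave 3.27, 13.2, 24.4 and 141 CPM in naloxone cells, against 2.27, 9.8, 21.7 and 107 CPM in DAMGO cells. Its log2 difference was 0.36 ± 0.10 (SE), and its level climbed with differentiation under both drugs.

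P3h3, a prolyl 3-hydroxylase that modifies collagen, varied little between stages. Naloxone cells had 26.2, 21.3, 20.4 and 19.7 CPM, and DAMGO cells 19.8, 16.3, 14.2 and 17.3 CPM, so that the groups overlapped by a single narrow margin, 19.7 CPM in naloxone cells of day 8 and 19.8 CPM in undifferentiated DAMGO cells (log2 difference 0.36 ± 0.11 SE). Scg5, the chaperone of prohormone convertase 2, gave 2.07, 8.96, 8.81 and 11.2 CPM in naloxone cells and 1.23, 5.63, 6.76 and 7.99 CPM in DAMGO cells (0.54 ± 0.17 SE). Bace2, a beta-secretase family protease, was most abundant at day 8, where it stood at 213 CPM in naloxone cells and 164 CPM in DAMGO cells (0.38 ± 0.12 SE over the 4 stages). Other genes on this side were Plpp7 (0.52), Arid5a (0.40), the ferrireductase gene Steap3 (0.47), the phospholipid transfer protein gene Pltp (0.34), Ccdc12 (0.30) and Tmem50b (0.23). Those values are fitted log2 differences, and none passed the test. With the GC and length trend removed, P3h3 and Pltp no longer had 1 sign at 4 of 4 stages: P3h3 had a log2 ratio of -0.05 at day 8 in place of 0.17, and Pltp had -0.02 at day 2 in place of 0.04. The day 8 ratio of Igfbp3 was then 0.25 in place of 0.41, and that of Oplah 0.22 in place of 0.40.

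Tom1, an adaptor of endosomal sorting (chr8:75033705-75070121, plus strand), stands apart because the table lists it at 0 in part of the libraries. It had 37.5, 33.6, 17 and 113 CPM in naloxone cells, against 21, 0, 0 and 48.1 CPM in DAMGO cells. Behind the zeros stand 259 counts in naloxone cells at day 2 and 91 counts at day 4, each against 0 counts in the DAMGO library of that stage. The naloxone value was also the higher one at the 2 stages where DAMGO cells had counts. Whether reads were assigned to an overlapping gene was not tested, so the zeros need not mean that the transcript was absent. The fitted log2 difference of 1.77 ± 0.44 (SE) depends on how an estimate of 0 is treated and did not pass the test; it did pass when genes with low counts were kept in the fit. Other named genes listed at 0 in 1 library and at 5 CPM or more in its partner were Nanp and Zfp781, at 0 in DAMGO cells of day 4, and Lsm7, at 0 in naloxone cells of day 4. They were chosen for those zeros after their values were seen.

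**Figure D2:**
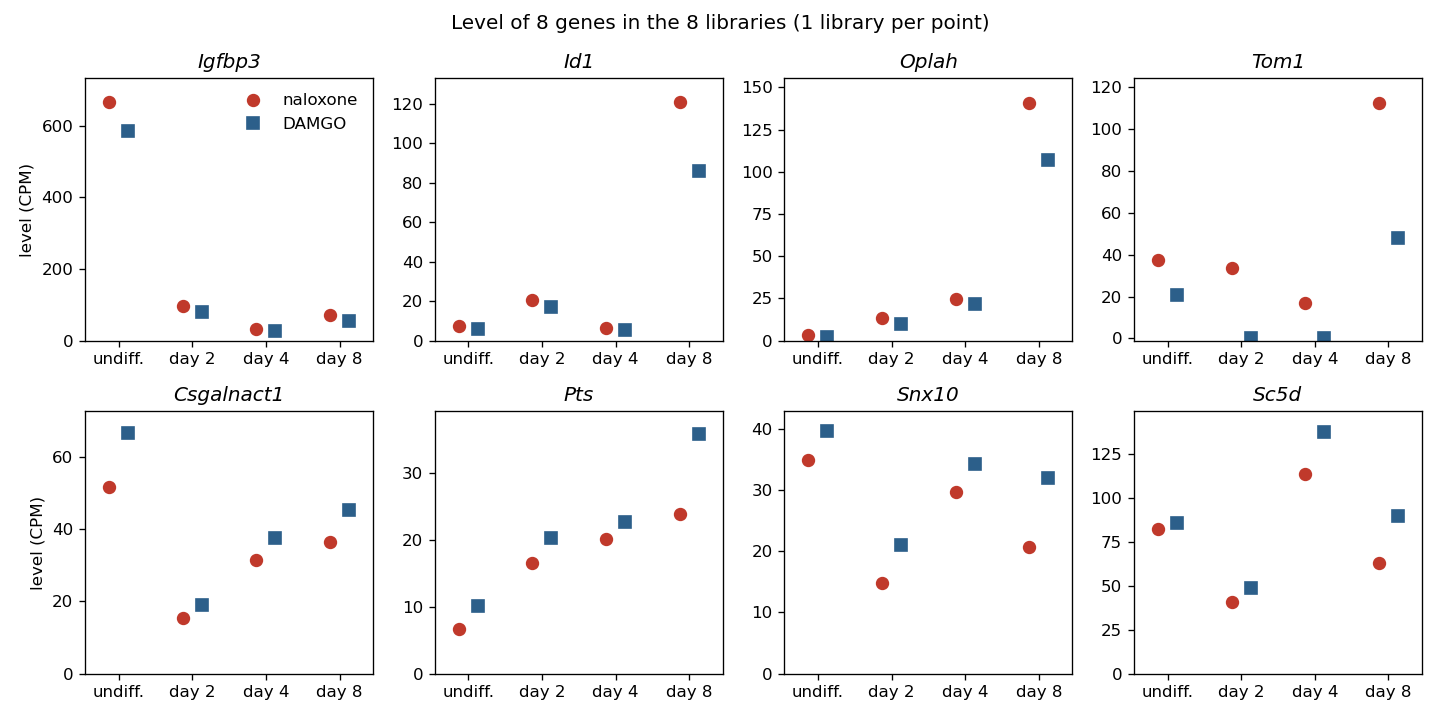
Level in CPM (vertical axis, linear) of 8 genes in each of the 8 libraries, naloxone as circles and DAMGO as squares, by stage. In the upper row the naloxone circle lies above the DAMGO square at each stage, with Tom1 at 0 in DAMGO cells of day 2 and day 4; in the lower row it lies below, the widest gap of Pts being 23.8 CPM in naloxone cells and 35.9 CPM in DAMGO cells at day 8.

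On the other side, Csgalnact1 was lower in naloxone cells at each stage by a similar factor. It encodes an enzyme that starts chondroitin sulfate chains, a main sugar of the neural extracellular matrix, and lies at chr8:68356781-68735146 on the minus strand. Naloxone cells held 51.7, 15.5, 31.5 and 36.6 CPM, against 66.7, 19.1, 37.6 and 45.2 CPM in DAMGO cells, and its log2 difference was -0.31 ± 0.08 (SE; 95% interval -0.50 to -0.13). Its 4 stage ratios ran from -0.36 to -0.25, so no stage stood out, but the genes named here were chosen partly for such agreement. Pts makes an intermediate of tetrahydrobiopterin, the cofactor of aromatic amino acid hydroxylases. It gave 6.72, 16.5, 20.1 and 23.8 CPM in naloxone cells and 10.2, 20.3, 22.6 and 35.9 CPM in DAMGO cells (-0.41 ± 0.12 SE), the lower value being in naloxone cells at each stage.

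Sc5d, a late enzyme of cholesterol synthesis, was lower in naloxone cells mainly once differentiation had begun. It stood at 82.3, 40.9, 114 and 62.9 CPM in naloxone cells, against 86.1, 49, 138 and 90.1 CPM in DAMGO cells (-0.28 ± 0.09 SE). Gamt, which completes creatine synthesis, had 17.2, 22.1, 12.6 and 15.3 CPM in naloxone cells and 20.5, 25.8, 16.6 and 21.4 CPM in DAMGO cells (-0.33 ± 0.11 SE), and the levels of the groups overlapped. Snx10, a sorting nexin of endosomes (-0.37 ± 0.11 SE), Cd109, a membrane protein that binds transforming growth factor beta (-0.34 ± 0.10 SE), Xpr1, the phosphate exporter (-0.25 ± 0.08 SE), and the splicing-related gene Scaf11 (-0.29 ± 0.09 SE) shared a pattern of small ratios in undifferentiated cells and larger ones at day 8. These 4 genes have a GC content of 45.2% or less, the range in which the day 8 ratios of all genes were also low. Without the trend the day 8 ratio of Xpr1 was -0.07 in place of -0.41, and that of Scaf11 was -0.36 in place of -0.65. Rell1 (-0.33) and Igsf10 (-0.29) complete the genes named on this side, with Tmem254c (-0.90 ± 0.21 SE). Tmem254c has near-identical copies next to it, so its share of the reads is uncertain, and it passed the test only when genes with low counts were kept.

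**Figure D3:**
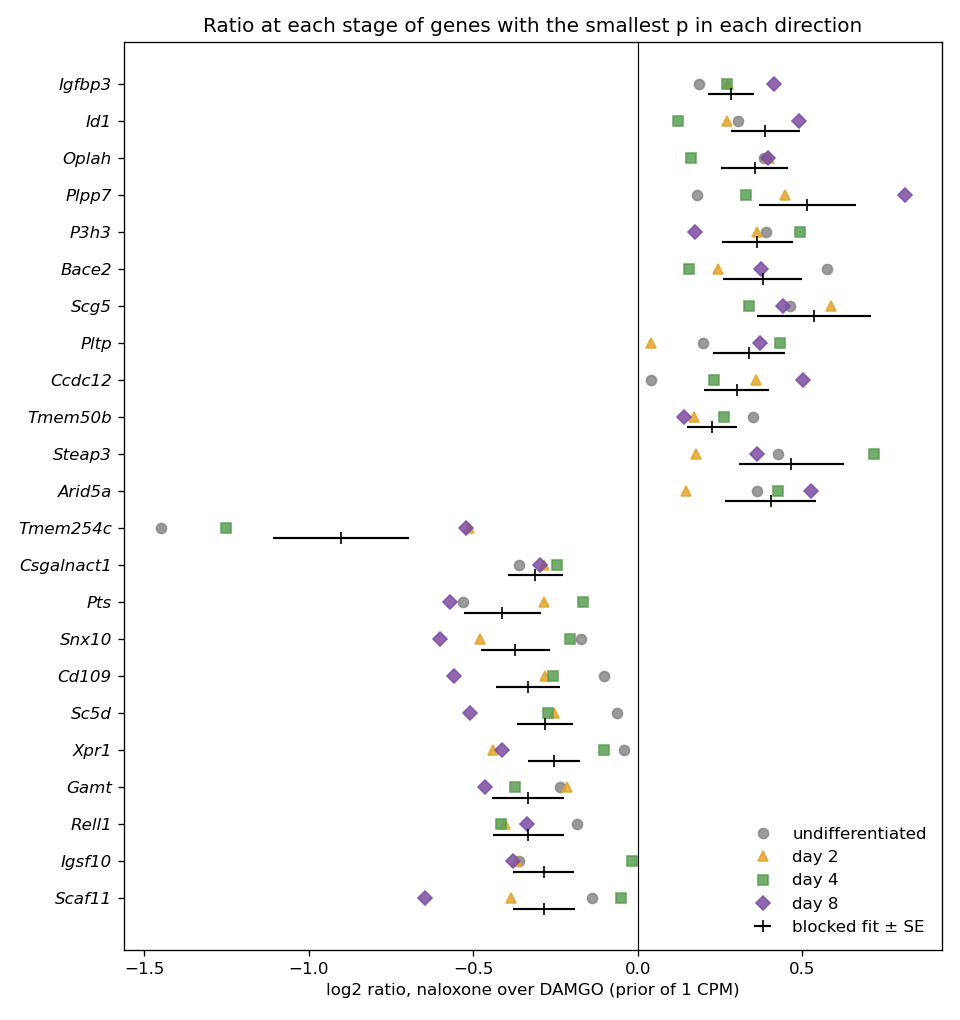
Log2 ratio of naloxone over DAMGO (horizontal axis, prior of 1 CPM) at each of the 4 stages, 1 symbol per stage, for the genes named here from those with the smallest p in each direction, except Tom1, with the blocked difference and its standard error as a black bar below. Each gene keeps its sign at 4 of 4 stages by the rule that chose it, and none passed the test (adjusted p = 0.932).

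The receptors that the 2 drugs are known for were at or near the limit of detection. Oprm1, the mu receptor, and Oprk1, the kappa receptor, had no counts in the 8 libraries. Such a zero still allows 0.0617 CPM over all 8. Oprd1, the delta receptor, had 1 count, in a naloxone library. The nociceptin receptor gene Oprl1 was measured at 1.72, 21, 23.8 and 32.4 CPM in naloxone cells, against 1.75, 19.4, 25 and 29.2 CPM in DAMGO cells, with a log2 difference of 0.07 ± 0.11 (SE; 95% interval -0.17 to 0.31). Levels were higher at the later stages under both drugs. Ogfr, the opioid growth factor receptor, which is unrelated in sequence to the classical receptors, was abundant in both drugs: 84, 182, 118 and 133 CPM in naloxone cells and 87.5, 182, 110 and 121 CPM in DAMGO cells (0.05 ± 0.07 SE). Its relative Ogfrl1 gave a difference of -0.05 ± 0.17 (SE). The signs of these 3 differences turned when TPM values were used in place of counts. Of the peptide precursors, Penk had 0 counts in the 4 naloxone libraries and 1 in the 4 DAMGO libraries, Pnoc 1 and 3, Pomc 17 and 12, and Pdyn, the prodynorphin gene, 48 and 29. Tlr4, an innate receptor on which naloxone has also been reported to act, reached 4.48 CPM in undifferentiated naloxone cells and 2.1 CPM in undifferentiated DAMGO cells, and lay under 0.4 CPM in the other 6 libraries.

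Across 34 lists of genes, chosen with earlier results of these data known, 479 genes were tested and 0 passed. At an unadjusted p under 0.05, edgeR's quasi-likelihood test gave 18 of them, or 3.76%, beside 3.41% of all genes, with 7 higher and 11 lower in naloxone cells. In the Gi/o list, which holds G protein subunits, adenylyl cyclases and receptor kinases, 1 of 29 genes reached that level: Gng2, a G gamma subunit, with 110, 57.4, 49.8 and 19.4 CPM in naloxone cells and 121, 62.6, 52.9 and 30.6 CPM in DAMGO cells. The list's median difference was 0.07, beside 0.02 for all genes tested. Among 16 targets of cyclic AMP and CREB, 0 reached an unadjusted p under 0.05, and the list's median ratio switched sign between stages: it was 0.15 in the undifferentiated pair, -0.16 for day 2, 0.12 for day 4 and 0.00 for day 8. Creb1 itself stood at 145, 20.8, 103 and 10.3 CPM in naloxone cells, against 149, 33.6, 94 and 17.3 CPM in DAMGO cells.

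Among lists with at least 8 tested genes, the largest median before day 8 was that of ERK feedback, at day 2. Its 17 genes had a median log2 ratio of 0.24 at day 2, beside 0.00 for all genes tested, and 12 of them were higher in naloxone cells, beside 6178 of all 12312. In the undifferentiated, day 4 and day 8 pairs the list's median was 0.03, -0.02 and 0.05. Dusp6, the phosphatase that removes the activating phosphates of ERK, stood at 322.5, 67, 4.31 and 3.34 CPM in naloxone cells, against 295, 38.1, 6.06 and 3.74 CPM in DAMGO cells. At day 2 it had the largest ratio of the named genes that averaged 20 CPM or more in that pair, and at day 4 and day 8 its order was the other way round at low levels. Spry2, a Sprouty inhibitor of receptor tyrosine kinase signalling, gave 199, 183, 60.1 and 44 CPM in naloxone cells and 205, 134, 47.6 and 39.6 CPM in DAMGO cells. Spry1 stood at 32.3 CPM in naloxone cells and 23.6 CPM in DAMGO cells at day 2, and the ERK-responsive factor Etv5 at 198.5 CPM and 167 CPM in the same order.

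Egr1, an immediate early factor induced through ERK, gave 416, 33.5, 8.43 and 8.1 CPM in naloxone cells, against 380.5, 19.4, 8.16 and 5.1 CPM in DAMGO cells, with the day 2 naloxone value well above its partner. Over the 4 stages its difference was 0.36 ± 0.13 (SE), Spry2's was 0.22 ± 0.09 (SE) and that of Dusp6 was 0.31 ± 0.15 (SE), with an adjusted p of 0.932 for each by edgeR's quasi-likelihood test. Each of these transcripts was several-fold lower at day 8 than in undifferentiated cells under both drugs. After removal of the GC and length trend the day 2 median of the list was 0.18.

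The 250 bases before the annotated start of Dusp6, Spry2 and Spry1 are shown because these genes were among those with the largest day 2 ratios of the list; they are taken from the RefSeq annotation of GRCm38.p6, given 5′ to 3′ on the strand of the gene, at chr10:99262981-99263230 (plus), chr14:105896820-105897069 (minus) and chr3:37639697-37639946 (plus). Capitals mark CGGAA, a string found in many sites of ETS-family factors such as Etv5, or its reverse complement TTCCG.
Dusp6: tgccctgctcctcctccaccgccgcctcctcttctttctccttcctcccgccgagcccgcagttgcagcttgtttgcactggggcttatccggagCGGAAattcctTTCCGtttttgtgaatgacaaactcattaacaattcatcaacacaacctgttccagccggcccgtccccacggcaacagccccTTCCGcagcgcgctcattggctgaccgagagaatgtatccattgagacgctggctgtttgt
Spry2: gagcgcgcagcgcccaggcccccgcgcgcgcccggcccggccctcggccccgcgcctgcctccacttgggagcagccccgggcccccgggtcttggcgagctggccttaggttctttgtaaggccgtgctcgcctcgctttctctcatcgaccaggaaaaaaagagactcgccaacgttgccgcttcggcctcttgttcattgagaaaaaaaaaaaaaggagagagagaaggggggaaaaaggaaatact
Spry1: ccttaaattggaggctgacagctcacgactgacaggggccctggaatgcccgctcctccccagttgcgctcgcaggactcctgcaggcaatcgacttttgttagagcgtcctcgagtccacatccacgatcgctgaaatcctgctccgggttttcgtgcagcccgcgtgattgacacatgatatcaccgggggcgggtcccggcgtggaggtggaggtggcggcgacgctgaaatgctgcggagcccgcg
Both strands were searched. The Dusp6 stretch holds CGGAA or TTCCG 3 times, and neither the Spry2 nor the Spry1 stretch holds these strings. Of 32851 promoter stretches of this length in the same annotation, 25.2% hold such a match. Shorter forms of the site, such as GGAA, were not searched, and the Spry2 and Spry1 stretches hold that one. The match is a description of the sequence and not evidence of binding.

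The BMP genes had the largest positive median at day 8 among lists of at least 8 tested genes. The list, made of ligands, antagonists, inhibitory Smads and Id genes, had a median log2 ratio of 0.38 over 10 tested genes at day 8, beside 0.04 for all genes, and of 0.07, 0.07 and -0.10 at the 3 earlier stages. Bmp6, a ligand of this family, had no counts at the first 2 stages, gave 2.81 CPM in naloxone cells and 3.03 CPM in DAMGO cells at day 4, and reached 220.1 CPM in naloxone cells and 161 CPM in DAMGO cells at day 8. Id1 was higher by a similar factor at that stage, with 121 CPM in naloxone cells and 85.8 CPM in DAMGO cells. Id4, another inhibitor of the family, stood at 332 CPM in naloxone cells and 348 CPM in DAMGO cells at day 8, in the opposite order to Id1. With the GC and length trend removed, the list's day 8 median was 0.23. Id4 then had a day 8 log2 ratio of 0.28 in place of -0.07, the same direction as Id1 (0.35 in place of 0.49), and Bmp6 had 0.23 in place of 0.45.

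Of 19 listed genes induced by interferon 8 were tested, and at day 8 naloxone cells had the higher value for 2 of them, beside 6757 of all 12312. The list had a median log2 ratio of -0.37 over 8 tested genes at that stage, -0.23 after removal of the GC and length trend, and between -0.09 and -0.04 at the other 3. Gbp2, an interferon-induced GTPase, stood at 65.7 CPM in naloxone cells and 81.1 CPM in DAMGO cells at day 8. B2m, the light chain of MHC class I, stood at 83.6 CPM in naloxone cells and 133 CPM in DAMGO cells, and Ifit2 at 6.91 CPM and 13.3 CPM in the same order. Without the trend the day 8 log2 ratio of B2m was -0.23 in place of -0.67, while Gbp2 (-0.27) and Ifit2 (-0.69) moved less. Only Gbp2 and B2m of the 8 reached an unadjusted p under 0.05 over the 4 stages in edgeR's quasi-likelihood test, and neither passed.

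**Figure D4:**
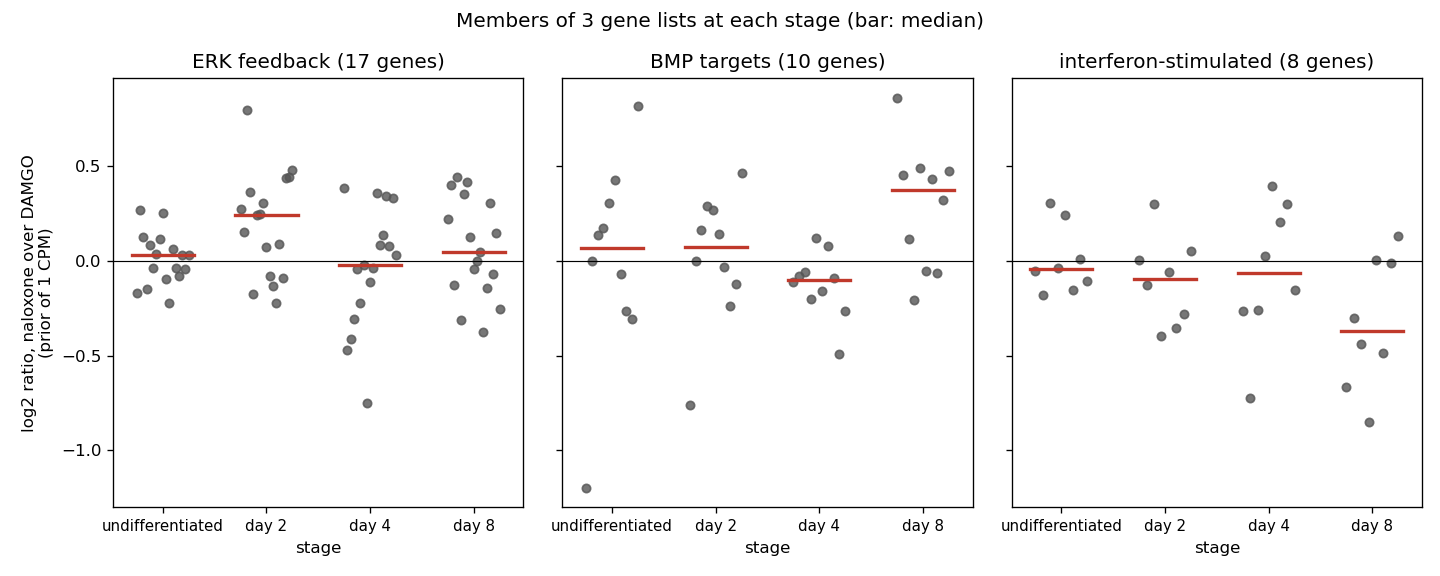
Log2 ratio of naloxone over DAMGO (vertical axis, prior of 1 CPM) at each stage (horizontal axis) for each tested member of 3 gene lists, 1 point per gene, with the median as a red bar. The median of ERK feedback genes reaches 0.24 at day 2, that of BMP genes 0.38 at day 8, and that of interferon-induced genes -0.37 at day 8.

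Markers of stem cells and of the 3 neural lineages showed differences that were mostly small beside their change between stages. In the stem and progenitor list, 1 of 20 genes, Id1, reached an unadjusted p under 0.05 in edgeR's quasi-likelihood test, and the list's median difference was -0.03. Nes stood at 1735, 388, 186 and 312 CPM in naloxone cells, against 1884, 420.1, 195 and 264 CPM in DAMGO cells, lower in naloxone cells until day 4 and higher at day 8 (-0.02 ± 0.07 SE). Its day 8 log2 ratio was 0.02 with the GC and length trend removed, in place of 0.24. The RNA-binding progenitor gene Msi1 gave 36.9, 143, 137 and 229 CPM in naloxone cells and 37.8, 131, 120.1 and 188 CPM in DAMGO cells (0.16 ± 0.07 SE), and its day 8 ratio was 0.07 without the trend in place of 0.28.

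The fitted differences of neuronal markers had both signs. Tubb3, a neuronal tubulin, stood at 17.6, 120, 112 and 115 CPM in naloxone cells and 17, 110, 107 and 94.3 CPM in DAMGO cells (0.14 ± 0.08 SE). Dcx, a microtubule protein of migrating young neurons, stood at 11.5, 34.4, 352 and 57.7 CPM in naloxone cells and 13.3, 38.1, 338 and 88.2 CPM in DAMGO cells (-0.22 ± 0.11 SE). Map2, a dendritic microtubule protein, gave 1210, 627, 1563 and 259 CPM in naloxone cells, against 1230, 835, 1494 and 336 CPM in DAMGO cells (-0.18 ± 0.08 SE), and was the 1 gene of 20 at an unadjusted p under 0.05 in edgeR's quasi-likelihood test. The list's median difference was -0.05. The opposite day 8 ratios of Tubb3 and Dcx were smaller with the GC and length trend removed, at 0.05 in place of 0.28 for Tubb3 and -0.24 in place of -0.61 for Dcx. Dcx then had 0.07 at day 2 in place of -0.14, and the list's day 8 median was -0.22 in place of -0.05.

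Astrocyte genes differed little, with a median of 0.03 over 21 genes. With the GC and length trend removed that median was -0.03, and the list's day 8 median was -0.12 in place of 0.02. Gfap was at trace levels before differentiation and high at day 8 under both drugs: 0.689, 6.88, 527 and 9092 CPM in naloxone cells and 2.27, 8.35, 555 and 8765 CPM in DAMGO cells (-0.07 ± 0.10 SE). Aqp4, the water channel of astrocyte endfeet, broke the pattern at day 8, with 385 CPM in naloxone cells and 660.3 CPM in DAMGO cells. Its values at the other stages were 2.93, 35.2 and 433 CPM in naloxone cells and 2.1, 43 and 449 CPM in DAMGO cells, and its difference of -0.36 ± 0.12 (SE) passed the test only when genes with low counts were kept in the fit. Mlc1, a membrane protein found with Aqp4 at the endfeet, did not share this and stood at 2648 CPM in naloxone cells and 2343 CPM in DAMGO cells at day 8.

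In the oligodendrocyte lineage, Pdgfra, the growth factor receptor of precursors, stood at 21.5, 318, 550 and 275.5 CPM in naloxone cells and 26.4, 321, 586 and 309 CPM in DAMGO cells, the lower value being in naloxone cells at each stage (-0.12 ± 0.07 SE). Olig2, the factor that sets the lineage, leaned the other way from day 2 on, with 800, 1039, 677 and 339 CPM in naloxone cells and 807, 954, 652 and 276 CPM in DAMGO cells (0.11 ± 0.06 SE); its day 8 ratio was 0.06 without the trend in place of 0.30. The myelin gene Mbp reached 56.7 CPM in naloxone cells and 55.9 CPM in DAMGO cells at day 8 (0.13 ± 0.13 SE). Of the 12 precursor genes 1, Ptprz1, reached an unadjusted p under 0.05 in edgeR's quasi-likelihood test, with 410 CPM in naloxone cells and 624 CPM in DAMGO cells at day 8 (a log2 ratio of -0.61, and -0.18 without the trend), and of the 10 genes of differentiated oligodendrocytes 0 did.

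Cell cycle genes differed little while the cells divided, and some had higher values in naloxone cells later. Mki67, a marker of dividing cells, stood at 1269, 14.2, 12.7 and 0.953 CPM in naloxone cells and 1293, 17.1, 5.36 and 0.85 CPM in DAMGO cells, so day 4 alone had a clear gap (0.07 ± 0.15 SE over the 4 stages). Ccnb1, the mitotic cyclin, gave 326, 44.1, 7.31 and 2.98 CPM in naloxone cells, against 304, 33.2, 4.9 and 2.89 CPM in DAMGO cells. In the list of G2 and M phase genes 18 of 25 were higher in naloxone cells at day 4, beside 6695 of all 12312, and the median ratio was 0.13, beside 0.02 for all genes. For S phase genes the medians lay between 0.03 and 0.05 at the 4 stages, and Tyms, which makes thymidylate for replication, stood at 67.5, 17.4, 20.2 and 14.3 CPM in naloxone cells and 65.8, 11.8, 17.5 and 9.86 CPM in DAMGO cells. Each of these lists had 1 gene of 25 at an unadjusted p under 0.05 in edgeR's quasi-likelihood test. While the cells were undifferentiated and dividing, the medians were 0.01 for G2 and M phase and 0.04 for S phase. With the GC and length trend removed, the day 8 medians were 0.21 in place of 0.04 for G2 and M phase and 0.16 in place of 0.03 for S phase. The named G2 and M phase genes were scarce at day 8, as Plk1 at 2.62 CPM in naloxone cells and 1.87 CPM in DAMGO cells. Ndc80 stood at 0.119 CPM in naloxone cells and 0 CPM in DAMGO cells. Its log2 ratio was 0.16, and 0.44 without the trend. The trend is removed in full at any level, so it can exceed the ratio of a scarce gene.

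At day 8 cholesterol genes had a median ratio of -0.18 over 23 genes, with Hmgcs1, which feeds the mevalonate pathway, at 1096 CPM in naloxone cells and 2120 CPM in DAMGO cells; at the 3 earlier stages its values differed by little, as at day 4 with 3216 CPM in naloxone cells and 3276 CPM in DAMGO cells. The list's day 8 median was -0.15 after removal of the GC and length trend. Genes of glycolysis and hypoxia had their lowest median in undifferentiated cells, at -0.11, where 2 of 23 were higher in naloxone cells, beside 6148 of all 12312; Slc2a3, a glucose transporter, stood there at 66.3 CPM in naloxone cells and 81.9 CPM in DAMGO cells. Among p53 targets, 2 had an unadjusted p under 0.05 in edgeR's quasi-likelihood test, Eda2r (-0.24 ± 0.09 SE) and Ccng1 (-0.28 ± 0.12 SE), within a list of 18 whose median difference was 0.02. Ribosomal protein genes had a median of 0.05 over 26 genes, and nuclear genes of oxidative phosphorylation 0.03 over 26.

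**Figure D5:**
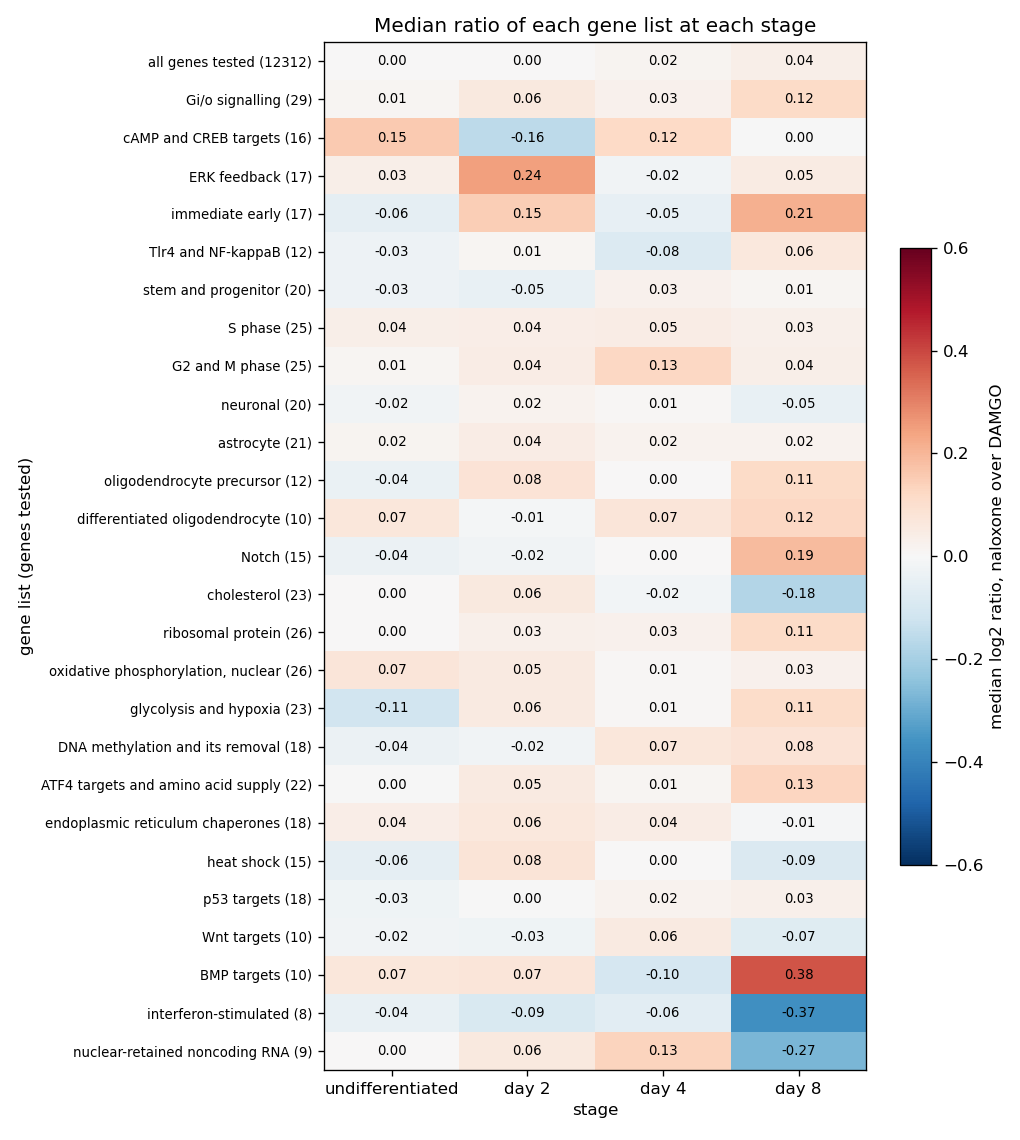
Median log2 ratio of naloxone over DAMGO for each list with at least 8 tested genes (rows, with the number of genes) at each stage (columns), coloured from blue (lower in naloxone cells) to red (higher). The strongest colours are BMP genes (0.38), interferon-induced genes (-0.37) and nuclear-retained noncoding RNA (-0.27) at day 8 and ERK feedback genes (0.24) at day 2. With the GC and length trend removed, the median of nuclear-retained noncoding RNA at day 8 was 0.02.

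The number of genes that parted by 1.5-fold or more was highest at day 8. Counting genes that averaged 20 CPM or more over the pair, 2 were higher and 2 lower in naloxone cells in the undifferentiated pair, 0.025% each of 7997. At day 2 there were 2 higher (0.0264%) and 40 lower (0.528%) of 7580, at day 4 there were 37 higher (0.466%) and 2 lower (0.0252%) of 7933, and at day 8 there were 26 higher (0.333%) and 228 lower (2.92%) of 7797. With the GC and length trend removed, day 2 had 4 higher and 13 lower, day 4 had 22 higher and 2 lower, and day 8 had 20 higher and 46 lower; the undifferentiated pair again had 2 and 2. These are single library pairs with no replicate, and no test was made within a stage.

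At day 8 the named genes with the smallest ratios were Hsp90aa1, Tmem184c, Fabp7, Erbin, Smchd1 and Stag2. Hsp90aa1, the inducible cytosolic HSP90 chaperone, stood at 994, 93.3, 677 and 77.6 CPM in naloxone cells, against 987, 103, 654 and 227 CPM in DAMGO cells; its blocked difference of -0.37 ± 0.20 (SE) passed the test only when genes with low counts were kept in the fit. Its day 8 log2 ratio was -1.54, and -1.42 after removal of the GC and length trend. Fabp7, the fatty acid binding protein of radial glia, gave 1953, 3159, 1640 and 209.9 CPM in naloxone cells, against 2031, 2342, 1480 and 485 CPM in DAMGO cells, so the drug with the higher value was naloxone at day 2 and DAMGO at day 8. Its day 8 log2 ratio was -1.20, and -0.79 without the trend. Stag2, a cohesin subunit, stood at 346, 25.7, 218 and 12.8 CPM in naloxone cells and 336, 32.3, 197 and 27.5 CPM in DAMGO cells, far lower at day 2 and day 8 than at the other stages under both drugs. Among the largest day 8 ratios was Angptl4, a lipoprotein lipase inhibitor, at 48.6 CPM in naloxone cells and 27 CPM in DAMGO cells, after 17.8 CPM and 25.9 CPM at day 4 in the same order.

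Lars2, the mitochondrial leucyl tRNA synthetase, changed order between stages and was among the named extremes at day 2, day 4 and day 8. It stood at 86.8, 102, 123 and 148 CPM in naloxone cells, against 93.6, 172, 57.8 and 78.7 CPM in DAMGO cells, so the naloxone value was lower at the first 2 stages and higher at the last 2. A predicted gene had log2 ratios of 0.96 at day 4 and 0.85 at day 8, beside 1.08 and 0.90 for Lars2. At day 2 that gene had -0.03 and Lars2 had -0.75. Whether all reads assigned to Lars2 came from its own transcript was not tested. At day 4, Casp8ap2, a regulator of histone gene expression and apoptosis, stood at 34.8 CPM in naloxone cells and 17.3 CPM in DAMGO cells, the glycan enzyme gene Fut9 at 73.4 CPM and 39 CPM, and Zfp945 at 52.6 CPM and 28.2 CPM, all in that order. Casp8ap2, Fut9 and Zfp945 each had the opposite order at day 2 and day 8. The day 8 log2 ratio of Zfp945 was -0.08 without the trend in place of -0.47. At day 2 the smallest ratios, predicted genes apart, were those of Vcpip1, Lars2 and Pcm1, a centriolar satellite protein at 26.2 CPM in naloxone cells and 43.2 CPM in DAMGO cells. In undifferentiated cells the named extremes were modest: Slc16a3, a lactate transporter, stood at 17.6 CPM in naloxone cells and 27.8 CPM in DAMGO cells, and the sulfotransferase gene Ust at 24.3 CPM and 16.8 CPM in the same order.

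Whether the drug difference changed between undifferentiated and differentiating cells was tested as an interaction. edgeR's quasi-likelihood test called 0 of 12312 genes (0%; smallest adjusted p 0.401), with 262 at an unadjusted p under 0.05, or 2.13%, and DESeq2 called 0 with 36 at that level. On the side where naloxone cells had the lower value before differentiation, the smallest p belonged to a predicted gene, and the next to Acta2, smooth muscle actin, Ahnak, a large scaffold protein, and Ccn2, a matricellular protein, each with an adjusted p of 1. Acta2 stood at 2.24, 3.64, 7.12 and 41.2 CPM in naloxone cells and 6.12, 3.27, 4.2 and 27.5 CPM in DAMGO cells, and Ahnak at 0.172, 4.02, 55.6 and 497 CPM in naloxone cells and 2.1, 2.9, 50.1 and 470 CPM in DAMGO cells. Both genes are switched on during differentiation under both drugs and were at low levels before it. On the other side the smallest p, predicted genes apart, was that of Commd8. It stood at 39.8, 28.3, 46.8 and 25.4 CPM in naloxone cells and 31.8, 38.1, 64.1 and 39.8 CPM in DAMGO cells. S100b, a calcium-binding protein of astrocytes, came next, at 3.79 CPM in undifferentiated naloxone cells and 0.875 CPM in undifferentiated DAMGO cells. At day 8 it stood at 50.6 CPM and 48.1 CPM in the same order. Its gap lies at low levels, and neither gene passed the test.

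Markers of other cell types were scarce or varied mainly with stage. Of 15 microglia and macrophage markers 8 had no counts in any library, Ptprc, Cx3cr1 and the C1q genes among them. Cdh5 and Cldn5, which define endothelium, had no counts in any library, and the 12 endothelial markers summed to between 5.06 and 29.1 CPM in naloxone cells and between 6.9 and 23.6 CPM in DAMGO cells. The 15 markers of mesenchyme and pericytes ran from 18.1 CPM to 320 CPM in naloxone cells and from 26.1 CPM to 265 CPM in DAMGO cells, lowest in undifferentiated cells and highest at day 8; their part in the differences of Acta2 and Ccn2 was not tested. The 11 ependymal markers summed at day 8 to 314 CPM in naloxone cells and 247 CPM in DAMGO cells, mostly from Foxj1, the master factor of motile cilia, at 254 CPM and 196 CPM in the same order. The day 8 log2 ratio of Foxj1 was 0.12 with the GC and length trend removed, in place of 0.37. The 12 markers of neural crest and Schwann cells and the 11 markers of pluripotent cells summed to at most 78.3 and 10.9 CPM in naloxone cells and 73 and 14.7 CPM in DAMGO cells.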

How the data were processed

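RNA of 8 conditions was sequenced with the Illumina TruSeq kit, per the labels' protocols. Per the submitters' processing notes, Bowtie and RSEM were used with mm10; no versions are given there. The deposited tables hold RSEM expected counts and TPM values per gene, as made by the authors. Expected counts were rounded to whole numbers. Per library, 10.4% to 12.9% of genes were not whole before rounding. TPM values served only in alternatives. No pair of libraries was identical. Of 29713 gene identifiers, 29202 matched the GENCODE annotation of GRCm38, which gave names, coordinates and GC content.

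Genes were filtered by edgeR (4.0.16; R 4.3.3) with its filter on expression by treatment, which left 12312, and scaled by TMM. A quasi-likelihood fit with stage as a block and treatment as the term of interest left 3 residual degrees of freedom among samples. The interaction with differentiation left 2. The spread of each gene was moderated toward that of all genes tested, with 8.81 prior degrees of freedom in the fit between the drugs. P-values were adjusted by Benjamini-Hochberg over all genes tested, with a threshold of 0.05. Each standard error and 95% interval comes from that fit. Levels are CPM after TMM scaling. Ratios within a stage are log2 ratios of CPM with 1 CPM added to each library, set 1 library against 1, so they carry no test. The limits given for 0 counts cover counting error only. The limit for 0 counts is 3 counts over the libraries named. At this depth the limit was 0.357 to 0.7 CPM per library.

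Named genes are up to 15 in each direction with the smallest p, 5 CPM or more on average and 1 sign at 4 of 4 stages, 5 each way for the interaction, the 6 largest and 6 smallest ratios per stage among genes with a mean of at least 20 CPM, up to 4 genes per list, and the opioid and marker genes. Predicted genes are not named, and a few results are not reported here. The comparison, its members and the lists were chosen with earlier results of these data known. Alternatives used DESeq2 (1.42.0), limma (3.58.1) and mgcv (1.9.3) for the GC and length trend; the trend within a single stage was added after seeing the data. The 2 reference libraries were not used, and the NC libraries entered 1 alternative.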

Additional observations from a re-analysis of the deposited data

Results flagged for a closer look

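For 66 genes and lists the ratios at the 4 stages were screened for 1 stage far from the other 3 by Dixon's criterion, which chance alone meets in about 1 of 20 such groups, and 7 met it. Oplah had a log2 ratio of 0.16 at day 4, against 0.38 to 0.40 at the other stages. Igsf10 had -0.019 at day 4, against -0.38 to -0.36. Nes had 0.24 at day 8, against -0.12 to -0.07; with the GC and length trend removed its day 8 ratio was 0.02. The median of the astrocyte list was 0.045 at day 2, against 0.018 to 0.019. With that trend removed the astrocyte median was 0.001 at day 2 and -0.119 at day 8. That of the interferon-induced list was -0.37 at day 8, against -0.09 to -0.04. The neural crest and Schwann marker list, with 5 tested genes, had a median of -0.62 at day 4, against 0.16 to 0.30, and the ependymal list, with 3 tested genes, had 0.28 at day 8, against -0.10 to -0.06; with that trend removed the ependymal median at day 8 was 0.12. Each rests on 1 library per drug at the stage named.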

How the results depend on the processing

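The count of 0 genes called between the drugs was the same under 12 of 14 alternatives. Without a filter on low counts 20 genes were called, Tom1, Tmem254c, Aqp4 and Hsp90aa1 among them, and leaving out 1 stage at a time gave 0 to 1, the 1 being a predicted gene called without the day 4 pair. No paired analysis beyond the stage block was possible because each condition has 1 library; without that block (no replicate block) 0 genes were called, with 1 at an unadjusted p under 0.05. For the interaction with differentiation 0 genes were called in 7 of 12 alternatives, 4 without the filter, 5 with limma on log2(TPM + 0.1), S100a6, Lims2 and Lgals3 among them, and 4 to 29 when 1 differentiating pair was left out: 4 without day 2, 29 without day 4 and 7 without day 8. Of 616 recomputed differences of named genes 14 changed sign, each on a difference within its standard error. Ogfr gave -0.033 on log2(TPM + 1), -0.033 on log2(TPM + 0.1) and -0.024 with the GC and length trend removed. Oprl1 gave -0.033 and -0.018 on the TPM scales. Ogfrl1 gave 0.016 and 0.044 on the TPM scales, 0.012 with the trend removed and -0.155 to 0.058 with 1 stage left out, the highest without day 8. Mbp gave -0.011 with the trend removed, and Gfap 0.045 and Mki67 -0.022 without the stage block. With 1 stage left out, Mki67 ran from -0.088 (without day 4) to 0.294 and Nes from -0.111 to 0.02 (without the undifferentiated pair). The cause was not tested.

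Depth limits genes under 5 CPM, where the median 95% interval spans a factor of 1.53 on each side. With 1 library per condition, a difference confined to 1 stage has no replicate.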
